A study of Mus musculus with 8 samples.

Results

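The 10 genes described here encode the secreted hormones insulin and amylin and the machinery that turns their precursors into mature peptides in pancreatic beta cells. They were taken by gene symbol from a table of 22632 genes, and all 10 were found: Ins1, Ins2, Iapp, Pcsk1, Pcsk2, Pcsk1n, Scg5, Cpe, Pam and Slc30a8. The rule names symbols and sets no threshold on a measured value.

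RNA was sequenced from mouse pancreatic islets in 8 libraries, 2 from each of 4 groups. All mice had the C57BL/6 background, and each was either wild type (Tcf7 +/+) or carried the label Tcf7 -/-, a knockout of the gene for the transcription factor TCF-1. The younger groups were 8 weeks old on a diet of 10% fat, and the older groups were 20 weeks old on a diet of 45% fat. The knockouts were compared with wild-type littermates, but age and diet changed together and cannot be told apart. Regular chow, named in the treatment label, and the low-fat diet of the diet label were not reconciled by the sources used here. The labels do not say which part of Tcf7 was deleted, whether the deletion was limited to a cell type, or whether a library held islets of 1 animal or a pool.

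Insulin is made as a precursor that loses a signal peptide, folds around disulfide bonds and is packed into secretory granules. There the prohormone convertases PC1/3 and PC2 cut it at pairs of basic residues, carboxypeptidase E trims the residues left at the cut ends, and zinc brought in by the transporter ZnT8 lets the mature hormone crystallise. Amylin travels in the same granules, is cut by the same convertases and ends in an amide group made by peptidylglycine alpha-amidating monooxygenase. Mice have a pair of insulin genes, Ins1 and Ins2, of which Ins2 is the ancestral copy.

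Levels are given in RPM, reads scaled to a fixed library total, as the authors deposited them. Library totals recovered from the values ran from 58.7 to 191 M reads, of which listed genes made up 41.6% to 51.0% at 8 weeks and 55.7% to 61.2% at 20 weeks. Ins2, Ins1 and Iapp stood at ranks 1, 2 and 4 of all listed genes by mean RPM. Acinar transcripts were also abundant. By mean log2(RPM + 1) the amylase gene Amy2a2 stood between Ins1 and Iapp. The sum of 17 acinar markers ran from 3325 RPM (wild-type replicate 1, 8 weeks) to 32011 RPM (wild-type replicate 2, 20 weeks). Tcf7 itself was not lower in the knockout-labelled islets. It stood at 0.277 and 0.381 RPM in wild-type islets and 0.512 and 0.519 RPM in knockout-labelled islets at 8 weeks, and at 1.58 and 0.991 RPM against 4.56 and 2.56 RPM at 20 weeks. The log2 fold changes were 0.19 ± 0.22 (limma SE, adjusted p = 1) and 0.97 ± 0.22 (adjusted p = 0.16). A whole-gene value does not check a deletion of part of a gene, so these libraries are called knockout-labelled, and every direction between genotypes rests on that label.

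Before levels at the 2 ages were set side by side, 1 difference between the libraries had to be taken into account. Iapp lies on chromosome 6, and the span of Slco1a5, an organic anion transporter gene on the opposite strand, covers it in the GENCODE M21 annotation (build GRCm38, used here only for gene structure, since the authors' build was mm9). At 8 weeks Slco1a5 was listed at 1.8 to 3.93 RPM. At 20 weeks it was listed at 5771 and 6107 RPM in wild-type islets and at 7547 and 9647 RPM in knockout-labelled islets, which is 1.03 to 1.04 times the value of Iapp in the same library. The 20-week value of Slco1a5 thus tracked Iapp across all 4 libraries of that age, and the 8-week value did not.

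**Figure D1:**
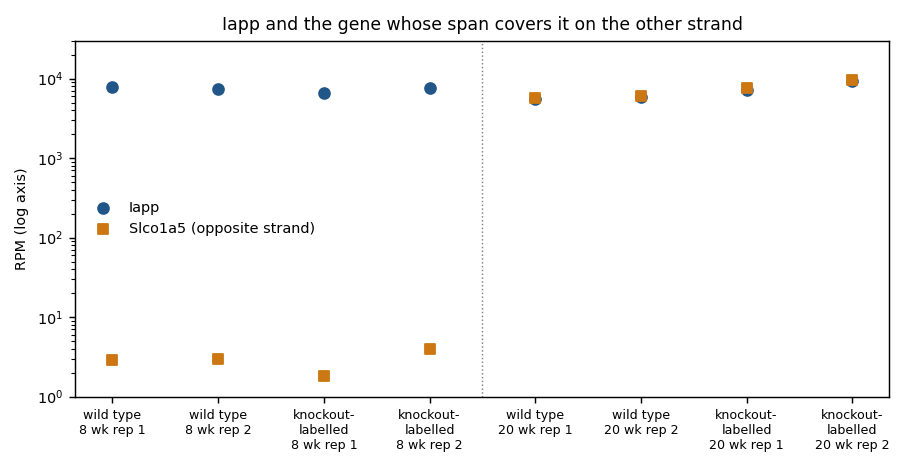
RPM (log axis) of Iapp and of Slco1a5, the gene whose span covers Iapp on the opposite strand, in each of the 8 libraries. Slco1a5 lies between 1.8 and 3.93 RPM in the 4 libraries at 8 weeks and just above Iapp in the 4 libraries at 20 weeks.

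The same was seen beyond Iapp. There were 28 pairs in which a gene with a mean of at least 20 RPM lay inside the span of another on the opposite strand without sharing exon sequence. The outer gene was at or above the inner one in all libraries of an age in 11 pairs at 8 weeks and 24 pairs at 20 weeks. Of 5 such pairs on the same strand, the number was 4 at either age. The pairs are not all separate, since Fgfr2 (mean of 615 RPM at 8 weeks and 1595 RPM at 20 weeks) was the outer gene of several on either strand. Not every pair behaved this way at 20 weeks, since Smyd1 had a mean of 0.0394 RPM around Krcc1 at 22.0 RPM and Uox 2.76 RPM around Dnase2b at 67.4 RPM (examples chosen after their values were seen). How strand was handled in the libraries and in the counting was not tested, and at Iapp and most of these pairs it cannot be told apart from age and diet. Comparisons between genotypes were made within an age, but at 8 weeks these also moved with gene structure, as given below. Among the other members, Pcsk1n overlaps Eras on the opposite strand, listed at no more than 0.115 RPM. Pcsk2 overlaps the antisense genes Pcsk2os1 and Pcsk2os2, and Pam overlaps 5 small annotated genes, none of which the table lists. Ins1, Ins2, Pcsk1, Scg5, Cpe and Slc30a8 overlap no annotated gene.

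Ins1 (ENSMUSG00000035804, chromosome 19) and Iapp (ENSMUSG00000041681, chromosome 6) are shown by the 250 bases before their annotated starts. They are printed because both hormone genes stood higher in knockout-labelled islets at 20 weeks, and because homeodomain factors such as Pdx1 act on short elements close to the start of both. Of the 10 genes, 7 matched an entry of the RefSeq promoter table (build GRCm38.p6). Both stretches are on the plus strand, that of Ins1 at chr19:52264047-52264296 and that of Iapp at chr6:142298175-142298424. Capitals mark TAAT, the core that homeodomain factors read, and CATCTG, an E box of the insulin gene type, on either strand (ATTA and CAGATG as reverse complements).
Ins1: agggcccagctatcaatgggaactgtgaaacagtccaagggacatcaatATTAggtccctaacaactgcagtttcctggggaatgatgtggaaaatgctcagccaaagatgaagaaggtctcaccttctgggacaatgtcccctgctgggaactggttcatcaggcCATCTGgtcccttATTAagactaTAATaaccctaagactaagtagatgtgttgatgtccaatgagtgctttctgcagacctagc
Iapp: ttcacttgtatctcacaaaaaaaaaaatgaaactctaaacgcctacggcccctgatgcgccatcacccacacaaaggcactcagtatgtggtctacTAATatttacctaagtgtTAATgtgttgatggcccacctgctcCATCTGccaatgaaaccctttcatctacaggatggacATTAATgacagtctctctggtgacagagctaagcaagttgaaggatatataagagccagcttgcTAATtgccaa
The Ins1 window held 3 matches of TAAT, and the Iapp window held 5, a pair of which overlap in the run of capitals that reads the same on both strands. Over the same 250 bases before the start, 17.8% of 27025 mouse promoters held at least 3 such matches and 55.3% at least 1. CATCTG occurred once in each of these 2 windows and in 14.5% of all promoters. TGACG, the core of a cyclic AMP response element, had 3 matches in the Pcsk1 window, a pair of which overlap on opposite strands. It had 1 match each in the windows of Pcsk2 and Scg5. Of all promoters, 17.9% held at least 1 match and 0.70% at least 3. These matches describe letters only, and binding was not measured here.

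The hormone transcripts were the most abundant of the set. Per kilobase of annotated transcript and averaged over the 8 libraries, Ins2 stood at 50839 RPM, Ins1 at 14571 RPM and Iapp at 8617 RPM. The convertase genes Pcsk2 (PC2) and Pcsk1 (PC1/3) stood at 504 and 60.0 RPM per kilobase. Slc30a8 stood at 456, Cpe at 406, Scg5 at 218, Pam at 140 and Pcsk1n at 15.3 RPM per kilobase. The order of the 10 genes was the same per kilobase of coding sequence.

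Not every neighbour in that order was apart. Over the libraries, Pcsk2 (378 to 578 RPM per kilobase of transcript), Slc30a8 (336 to 579) and Cpe (358 to 470) overlapped one another. Scg5 (186 to 246), Pam (116 to 158), Pcsk1 (45.2 to 81.1) and Pcsk1n (10.4 to 21.2) did not overlap any neighbour. Ins1 (11138 to 16892) just touched Iapp (6607 to 11187) per kilobase of transcript, and per kilobase of coding sequence Ins1 (36172 to 54860) overlapped Ins2 (51865 to 83577) instead. These per-length levels do not allow for intronic reads.

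Together the 10 genes took a large share of the reads in listed genes. Ins1 and Ins2 took 10.8% and 9.39% of them in wild-type islets and 9.57% and 8.69% in knockout-labelled islets at 8 weeks. At 20 weeks they took 4.76% and 5.64% in wild-type islets and 6.54% and 7.65% in knockout-labelled islets. As a share of listed reads, insulin was lower in each library at 20 weeks than in any at 8 weeks, but listed genes also made up more of the total at 20 weeks. As a share of all reads the ages overlapped, with 3.98% to 4.57% at 8 weeks and 2.91% to 4.52% at 20 weeks. By either share the knockout-labelled islets lay above the wild type at 20 weeks. In RNA from whole islets, fewer beta cells and less of these transcripts per cell cannot be told apart.

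**Figure D2:**
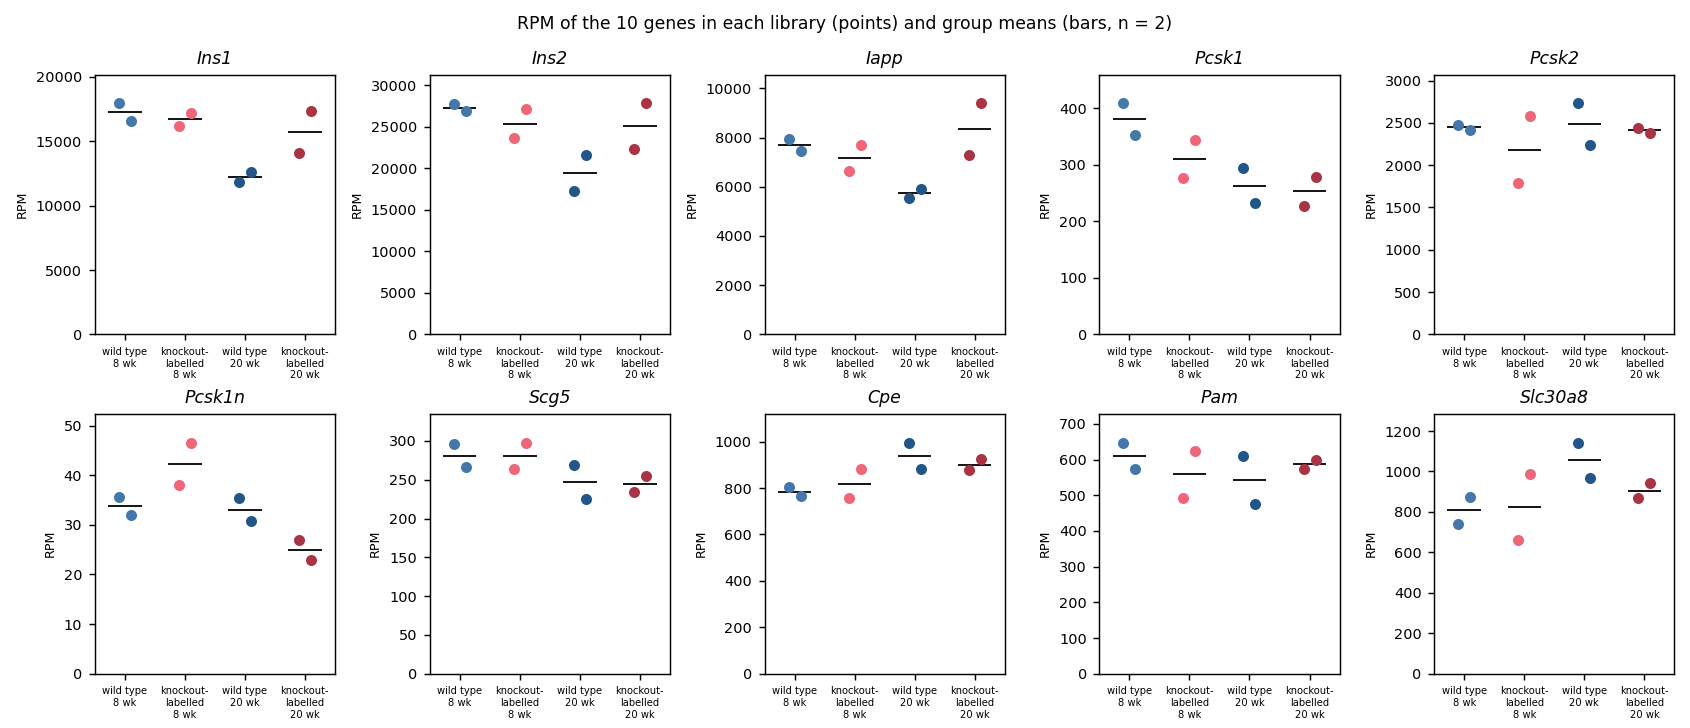
RPM of each of the 10 genes in each library (points) with the mean of the 2 libraries of a group (bars), for wild type and knockout-labelled islets at 8 weeks (10% fat) and 20 weeks (45% fat). The wild-type libraries at 20 weeks are the lowest for Ins1, Ins2 and Iapp, and the knockout-labelled islets at 20 weeks are the lowest for Pcsk1n.

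At 8 weeks, none of the hormone or processing genes passed the test between genotypes. Ins1 was at 17939 and 16576 RPM in wild-type islets and 16208 and 17224 RPM in knockout-labelled islets. Ins2 was at 27752 and 26865 RPM against 23632 and 27104 RPM, and Iapp, the amylin gene, at 7939 and 7457 RPM against 6634 and 7689 RPM. The groups overlapped for all 3 hormone genes, and Ins1 (-0.05 ± 0.69), Ins2 (-0.11 ± 0.79) and Iapp (-0.11 ± 0.57) had log2 fold changes smaller than their SE.

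Among the convertases, Pcsk1 was at 409 and 353 RPM in wild-type islets and 277 and 345 RPM in knockout-labelled islets. Pcsk2 was at 2473 and 2418 RPM against 1784 and 2585 RPM. Pcsk1 was lower in both knockout-labelled samples, with a log2 fold change of -0.30 ± 0.29 (limma SE, n = 2 against 2, adjusted p = 1), and for Pcsk2 the groups overlapped (-0.19 ± 0.44). The value of Pcsk1 turned to 0.04 with the acinar mean as a covariate and was -0.14 without knockout-labelled replicate 1.

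The binding partners of the convertases did not vary as a pair. Pcsk1n encodes proSAAS, an inhibitor of PC1/3, and was at 35.6 and 31.9 RPM in wild-type islets and 37.9 and 46.5 RPM in knockout-labelled islets. Both knockout-labelled islets were higher, with a log2 fold change of 0.31 ± 0.22 (limma adjusted p = 1), with 0.17 left without knockout-labelled replicate 2 and 0.58 with the acinar covariate. Scg5 encodes 7B2, the chaperone and inhibitor of PC2, and was at 296 and 266 RPM against 264 and 298 RPM (-0.00 ± 0.27), with overlapping groups.

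The remaining 3 genes also overlapped between genotypes at 8 weeks. Cpe, the carboxypeptidase, was at 804 and 766 RPM in wild-type islets and 758 and 881 RPM in knockout-labelled islets (log2 fold change 0.06 ± 0.34). Pam, the amidating enzyme, was at 647 and 573 RPM against 492 and 625 RPM (-0.13 ± 0.32). Slc30a8, the zinc transporter, was at 742 and 874 RPM against 662 and 986 RPM (0.00 ± 0.36). In all 3 genes the spread between the knockout-labelled islets was wider than the gap between the group means.

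By limma over all 13347 tested genes, 0 of the 10 genes passed an adjusted p of 0.05 at 8 weeks and 0 had an unadjusted p under 0.05, and edgeR on the recovered reads also called 0 (0 unadjusted). Of all tested genes 0.21% were called. The groups did not overlap for 2 of the 10 genes, Pcsk1 and Pcsk1n, where 13.1% of tested genes did not overlap. The median log2 fold change of the 10 genes was -0.08, beside -0.01 over all tested genes. Acinar markers, all 17 of them above 0, summed to 3325 and 9515 RPM in wild-type islets and 26956 and 13688 RPM in knockout-labelled islets, and 4 of 9 tested leukocyte markers were lower in the latter. With the acinar mean as a covariate, 0 of the 10 genes were called.

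At 20 weeks on the high-fat diet, the 3 hormone genes stood higher in both knockout-labelled samples than in either wild-type library, and none of the 10 passed the test. Ins1 was at 11828 and 12582 RPM in wild-type islets and 14061 and 17377 RPM in knockout-labelled islets. Ins2 was at 17271 and 21596 RPM against 22357 and 27831 RPM. Iapp was at 5543 and 5913 RPM against 7279 and 9385 RPM. On the log2 scale Ins1 stood 0.36 ± 0.69, Ins2 0.37 ± 0.79 and Iapp 0.53 ± 0.57 above wild type (limma SE, n = 2 against 2, adjusted p = 1 for each).

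The size of these errors came from the fit. Ins1 itself had a residual SD of 0.12 (log2), but the trend of spread with abundance set a prior SD of 0.78 at its level, giving 0.69. Of the 30 most abundant genes 7 were acinar markers, and the acinar list had a median residual SD of 0.82, where the median over all genes was 0.20. Without the trend, the SE fell to 0.20 for Ins1 and 0.21 for Iapp. Iapp then had an unadjusted p of 0.021 by limma and an adjusted p of 1. None of the hormone differences passed the adjustment over all tested genes with or without the trend. Without knockout-labelled replicate 2 at 20 weeks the values fell to 0.20 for Ins1, 0.21 for Ins2 and 0.35 for Iapp, and Ins2 was also at 0.21 without wild-type replicate 1.

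**Figure D3:**
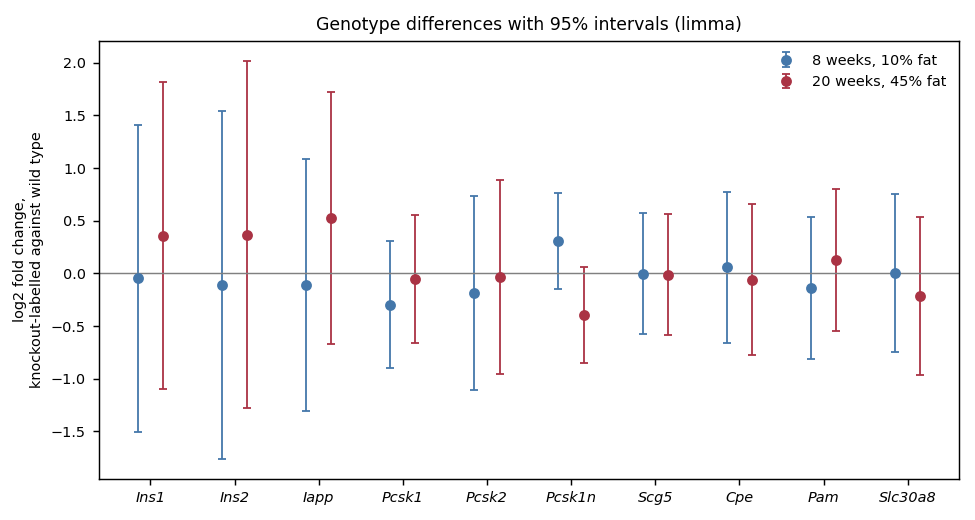
Log2 fold change of knockout-labelled against wild-type libraries for each of the 10 genes at 8 weeks (10% fat) and 20 weeks (45% fat), with 95% intervals from limma. Every interval includes 0, and the intervals of the hormone genes are the widest.

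The processing genes at 20 weeks stood closer together or in the other direction. Pcsk1 was at 294 and 233 RPM in wild-type islets and 228 and 279 RPM in knockout-labelled islets, and Pcsk2 at 2730 and 2239 RPM against 2440 and 2385 RPM. Both convertase genes overlapped between the groups (-0.05 ± 0.29 and -0.04 ± 0.44). Pcsk1n was at 35.3 and 30.8 RPM against 27.0 and 22.9 RPM, lower in both knockout-labelled samples (-0.39 ± 0.22, limma adjusted p = 1). Scg5 was at 269 and 225 RPM against 234 and 254 RPM, with overlapping groups (-0.01 ± 0.27).

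Cpe was at 995 and 880 RPM in wild-type islets and 876 and 923 RPM in knockout-labelled islets (-0.06 ± 0.34). Pam was at 611 and 474 RPM against 574 and 599 RPM (0.12 ± 0.32). Both overlapped between the groups. Slc30a8 was at 1142 and 970 RPM against 868 and 943 RPM, lower in both knockout-labelled samples (-0.22 ± 0.36).

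Of the 10 genes, 0 were called at 20 weeks by limma (0 with an unadjusted p under 0.05) and 0 by edgeR (1 unadjusted), where limma called 0.045% of all tested genes. The groups did not overlap for 5 of the 10 genes, with Ins1, Ins2 and Iapp higher and Pcsk1n and Slc30a8 lower. That count stands beside 33.5% of all tested genes. The median log2 fold change of the 10 genes was -0.02, beside -0.04 for all genes. Acinar markers summed to 11376 and 32011 RPM in wild-type islets and 9918 and 11656 RPM in knockout-labelled islets, and their part in these differences was not tested beyond the covariate fit, in which 0 of the 10 genes were called.

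Whether the genotype difference itself changed between the settings was tested as an interaction. None of the 10 genes passed by limma, where 0.0674% of tested genes did, and edgeR called 0. Pcsk1n had an unadjusted p under 0.05 by either tool. Its genotype difference was 0.31 at 8 weeks and -0.39 at 20 weeks, so that the interaction was -0.70 ± 0.31 (limma unadjusted p = 0.033, adjusted p = 1). The interaction of Iapp was 0.64 ± 0.81, that of Ins2 0.48 ± 1.11 and that of Ins1 0.40 ± 0.98.

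Between the ages, Pcsk1n was the 1 gene of the 10 that was called on the RPM scale, in knockout-labelled islets. There it fell from 37.9 and 46.5 RPM at 8 weeks to 27.0 and 22.9 RPM at 20 weeks, a log2 fold change of -0.73 ± 0.22 (limma adjusted p = 0.020, lower in 2 of 2 libraries). The share of tested genes called lower in that contrast was 2.22%, and 22% were called in either direction. The call was lost without knockout-labelled replicate 1 at 20 weeks (-0.85, limma adjusted p = 0.074) and without replicate 2 (-0.62, adjusted p = 0.19). In wild type Pcsk1n stood at -0.03 ± 0.22, and the difference between the genotypes is the interaction given above, which did not pass. edgeR called 2 of the 10 genes lower in these libraries, Pcsk1n (-0.98) and Pcsk1 (-0.52, adjusted p = 0.034), beside 21.6% of all tested genes called lower.

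In wild type the hormone genes were lower at 20 weeks in both libraries. On the log2 scale Ins1 was at -0.50 ± 0.69, Ins2 at -0.50 ± 0.79 and Iapp at -0.43 ± 0.57 against 8 weeks, and in knockout-labelled islets they were -0.10, -0.02 and 0.21. In wild type 0 of the 10 genes were called by limma (0 unadjusted), where 18.6% of tested genes were. edgeR called 1 lower, Pcsk1 (-0.80, adjusted p = 0.0098), beside 18.1% of all tested genes called lower. Pcsk1 went from 409 and 353 RPM to 294 and 233 RPM in wild type.

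Averaged over genotypes, 0 of the 10 genes were called by limma on the RPM scale, although 37.2% of all tested genes were. Pcsk1n came closest with -0.38 ± 0.15 (adjusted p = 0.057), the 1 gene of the 10 with an unadjusted p under 0.05, where 45.9% of all tested genes had one. Pcsk1 followed with -0.41 ± 0.20 (adjusted p = 0.12). No gene of the 10 had 20-week libraries apart from all 8-week libraries, where 38.6% of tested genes did.

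The scaling decided how many of the 10 were called between ages. On the RPM scale the median log2 fold change of all tested genes was 0.17, and with median-of-ratios scaling it was -0.00. The median of the 10 genes was -0.15 and -0.36 on these scales. With median-of-ratios scaling limma called 3 of the 10 lower, Pcsk1 (-0.62), Pcsk1n (-0.58) and Scg5 (-0.40), beside 27.9% of tested genes called lower. edgeR called the same 3, at -0.66, -0.63 and -0.44, beside 29.9% of tested genes called lower. The share of the 10 was thus close to the share of all genes.

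Changes between ages also moved with gene structure. Tested genes were ranked by the ratio of intronic to exonic length and split into 10 equal groups (deciles), a step chosen after the data were seen. The median log2 fold change between ages rose with each decile, from -0.10 in the lowest to 0.72 in the highest. Between genotypes the medians of the lowest and highest decile were 0.02 and -0.14 at 8 weeks, and -0.02 and -0.01 at 20 weeks. Ins1 and Pcsk1n belong to the lowest decile, Ins2 to decile 2, Iapp to decile 5 and Pcsk1 to decile 6. Slc30a8 belongs to decile 9, and Pcsk2, Scg5, Cpe and Pam, with introns at 97.7% to 98.5% of their span, to decile 10.

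Each of the 10 genes lay below the median of its own decile. In the highest decile, Scg5 (-0.19 ± 0.19), Pam (-0.05 ± 0.23), Pcsk2 (0.09 ± 0.31) and Cpe (0.20 ± 0.24) stood against 0.72. After each library was centred within deciles, limma called 6 of the 10 lower, beside 26.2% of the genes in that fit. These were Scg5 (-0.96), Pam (-0.82), Pcsk2 (-0.68), Pcsk1 (-0.58), Cpe (-0.57) and Pcsk1n (-0.38). Pcsk2 and Cpe changed sign under this centring. For genotype at 8 weeks, the centred values in the highest decile were -0.05 (Pcsk2), 0.00 (Pam), 0.14 (Scg5) and 0.20 (Cpe). Without centring these were -0.19, -0.13, -0.00 and 0.06. Intronic reads themselves cannot be counted in this table, so the centred values are a description beside the others.

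**Figure D4:**
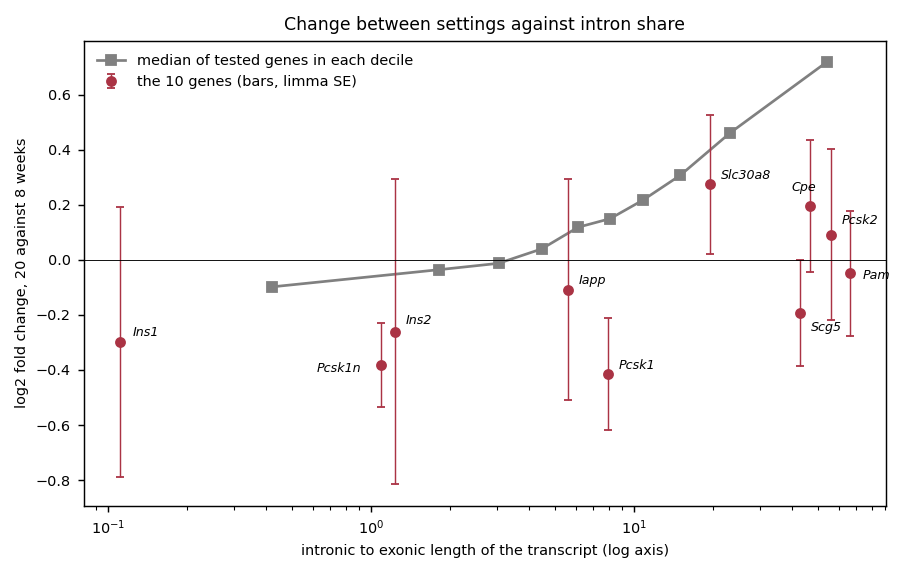
Log2 fold change at 20 against 8 weeks, averaged over genotypes, against the ratio of intronic to exonic length (log axis). Red points are the 10 genes with limma SE bars, and grey squares are the medians of all tested genes in deciles of that ratio, which run from -0.10 to 0.72. Each of the 10 genes lies below the median of its own decile.

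Ratios between genes within a library do not depend on how that library was scaled. Ins1 to Ins2 was the steadiest of 12 ratios tested, at 0.583 to 0.686 in RPM over all 8 libraries. A few sequence windows are common to the pair: 35 of 443 windows of 36 bases in the Ins2 transcript (7.90%) also occur in the Ins1 transcript (3.41% of its windows) and 0 windows of 75 bases do. Reads from those windows could be assigned to either gene.

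Between ages, 3 of the 12 ratios did not overlap. Pcsk1 to Pcsk2 was 0.133 to 0.165 at 8 weeks and 0.0934 to 0.117 at 20 weeks, a difference of -0.51 (log2). Scg5 to Pcsk2 was 0.110 to 0.148 and 0.0960 to 0.107, a difference of -0.29. Cpe to the sum of Ins1 and Ins2, times 1000, was 17.6 to 19.9 and 20.4 to 34.2, a difference of 0.47. Each had an exact two-sided permutation p of 0.0286, the smallest that 4 against 4 libraries allow, and a Benjamini-Hochberg p of 0.11 over the 12, so that 0 passed.

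For Pcsk1 to Pcsk2 the intron content of the pair differs, and the median change of tested genes was 0.15 in the decile of Pcsk1 and 0.72 in that of Pcsk2. For Cpe against the insulin genes the deciles had medians of 0.72 and of -0.10 (Ins1) and -0.04 (Ins2). Scg5 and Pcsk2 share a decile. The part of intronic reads in the 3 ratios was not tested.

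At 20 weeks, genotype groups did not overlap for 7 of the 12 ratios. With 2 against 2 libraries no exact test can go below p = 0.333, so these are values only. Iapp to the sum of the insulin genes was 0.190 and 0.173 in wild-type islets and 0.200 and 0.208 in knockout-labelled islets. The amylin transcript was thus slightly higher relative to insulin in the latter.

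The other ratios to insulin that did not overlap at 20 weeks were lower in knockout-labelled islets. Times 1000, Slc30a8 was at 39.3 and 28.4 in wild-type islets and 23.8 and 20.9 in knockout-labelled islets. Cpe was at 34.2 and 25.8 against 24.1 and 20.4, and Pcsk1 at 10.1 and 6.80 against 6.26 and 6.18. Pcsk1n was at 1.21 and 0.901 against 0.741 and 0.506, and Scg5 at 9.26 and 6.58 against 6.43 and 5.63. These ratios share 1 denominator, and the insulin genes were higher in knockout-labelled islets at this age, so they do not stand as separate differences.

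The inhibitor and its convertase also differed in ratio at 8 weeks. Pcsk1n to Pcsk1 was 0.0870 and 0.0904 in wild-type islets and 0.137 and 0.135 in knockout-labelled islets. At 20 weeks it was 0.120 and 0.132 against 0.118 and 0.0819, so that the order of the groups was the opposite. At 8 weeks 5 of the 12 ratios did not overlap between genotypes. Besides Pcsk1n to Pcsk1 these were ratios to insulin. Cpe, Scg5 and Pcsk1n were higher in knockout-labelled islets (log2 differences of 0.14, 0.08 and 0.40) and Pcsk1 was lower (-0.21).

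**Figure D5:**
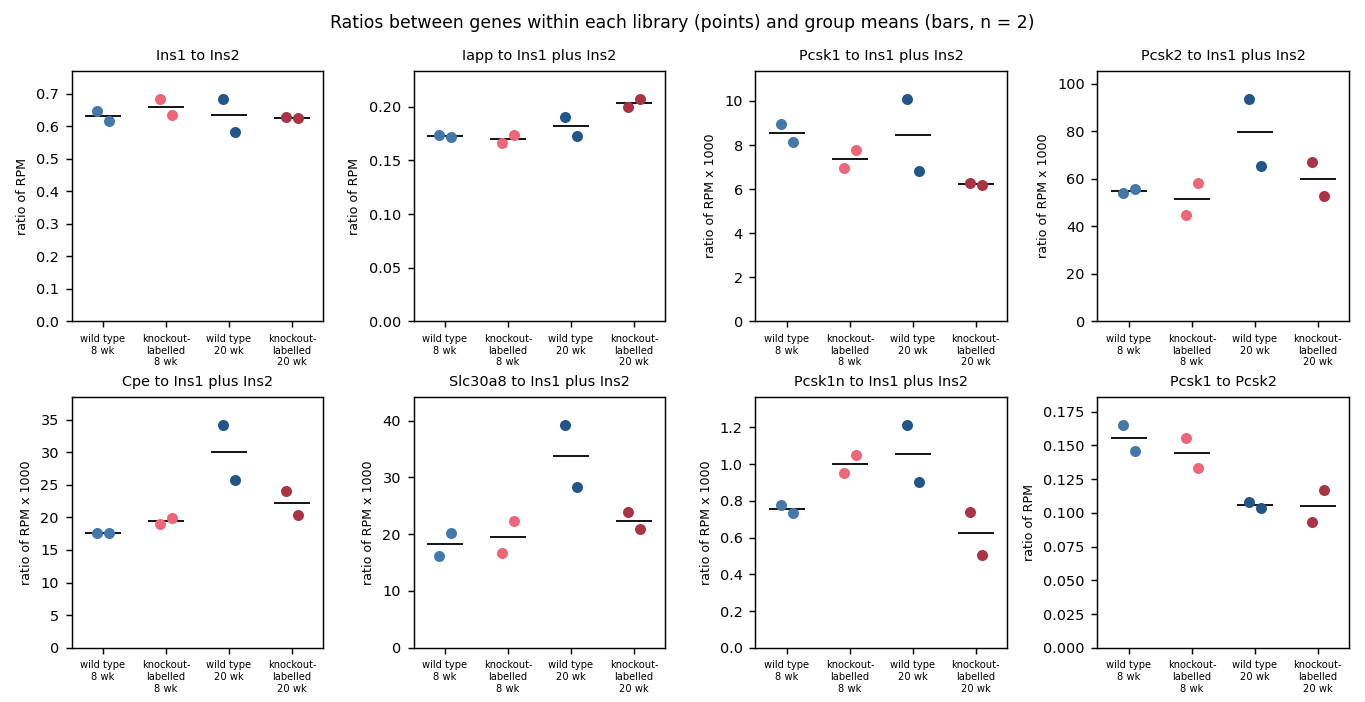
Ratios of RPM between genes within each library (points) and means of the 2 libraries of each group (bars), for 8 of the 12 ratios, multiplied by 1000 where the axis says so. Pcsk1 to Pcsk2 lies at 0.133 to 0.165 at 8 weeks and 0.0934 to 0.117 at 20 weeks, and Ins1 to Ins2 is level throughout.

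Across the 8 libraries the profiles of the 2 insulin genes were the most alike of any pair among the 10, with a root-mean-square difference of 0.073 between centred log2 values. Ins2 and Iapp came next at 0.11, followed by Scg5 and Pam at 0.11, and Ins1 and Iapp stood at 0.12. Among 7163 other genes with a mean of at least 10 RPM, those nearest to Ins1 were Krtcap2 (0.045) and Uqcr10 (0.052), and those nearest to Ins2 were Sec61b (0.057) and Ndufa4 (0.064). Nearest to Iapp were Cox6b1 and Nop10, to Pcsk1 Tmem176a and Prom1, to Pcsk1n Gadd45g and Aacs, and to Slc30a8 Akap7 and Akap10. These are descriptions over 8 libraries that differ in age and diet, with no test.

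Other genes of the same steps are given from lists chosen with earlier results known. Between genotypes at either age, 0 members were called of 10 tested other convertases and carboxypeptidases, 17 genes of signal peptide removal and disulfide folding, 17 other zinc transporters, 17 granule proteins, 16 insulin gene transcription factors and 9 other islet peptide hormones. Mafa, a transcription factor that drives the insulin genes, stood closest at 20 weeks. It was at 18.1 and 11.1 RPM in wild-type islets and 6.20 and 3.30 RPM in knockout-labelled islets, a log2 fold change of -1.45 ± 0.26 (limma adjusted p = 0.052). With median-of-ratios scaling the value was -1.39 (limma adjusted p = 0.28). At 20 weeks, lower Mafa values therefore stood in the same libraries as higher insulin values. That order did not extend to the 8-week libraries. There Mafa was at 28.2 to 39.9 RPM, and the insulin genes took 3.98% to 4.57% of all reads.

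Between ages, averaged over genotypes, limma called 31.2% of all tested genes higher and 6.05% lower. Of 10 other convertases and carboxypeptidases 2 were called higher, Pcsk6 (1.18 ± 0.17) and Pcsk5 (0.52 ± 0.18). Pcsk5 was not called with median-of-ratios scaling. Of 17 folding genes 1 was lower, Ssr2 (-0.66 ± 0.16), a subunit of the translocon-associated protein complex. Of 17 zinc transporters Slc39a3 (-0.51) and Slc39a7 (-0.54) were lower and Slc39a11 (0.51) higher. Of 17 granule proteins 3 were higher, including the vesicle SNARE Vamp2 (1.10) and the granule protein Ptprn2 (0.96), and 1 was lower, the granin Chgb (-0.86). After centring within intron deciles Pcsk6 stood at 0.41, Pcsk5 at -0.25, Slc39a11 at -0.26 and Ptprn2 at 0.19, while Ssr2, Slc39a3, Slc39a7, Chgb and Vamp2 kept their sign.

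Of 16 transcription factors 4 were higher and 2 lower at 20 weeks, beside 31.2% and 6.05% of all tested genes. Mafa fell from between 28.2 and 39.9 RPM to between 3.30 and 18.1 RPM, a log2 fold change of -1.83 ± 0.19 (limma adjusted p = 3.4e-07), and stood at -1.83 after centring within intron deciles. Tcf7l2 was at 1.49, and at 0.72 after that centring. Of 9 other peptide hormones 6 were lower and 1 higher, and 6 of 8 alpha cell markers were lower. The sum of the alpha cell markers, most of it Gcg, lay at 3849 to 5871 RPM at 8 weeks and 1956 to 3441 RPM at 20 weeks. Of 11 beta cell markers 2 were lower, and their sums overlapped between ages (2487 to 3709 RPM and 2740 to 3604 RPM). Pcsk2, which alpha cells also use, was measured in the same libraries, and the part of alpha cells in its level was not tested.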

How the data were processed

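Islet RNA from 8 libraries was depleted of ribosomal RNA and made into libraries with a TruSeq kit, per the labels' protocols. Reads were handled with CASAVA 1.8, FastQC and TopHat 1.4.1 on build mm9, per the submitters' processing notes. The sources used here name no counting tool, annotation or use of strand. The authors deposited RPM values, which were whole multiples of 1 read for 99.8% to 100.0% of values within 0.01 of a read, so reads were recovered. Symbols turned into dates were restored by identifier for 25 genes, and for 135 repeated symbols only the row of highest mean RPM was read under that symbol.

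The 13347 genes (all 10 members among them) that reached 1 RPM in 2 or more libraries were fitted in limma 3.58.1 (R 4.3.3). Values were fitted as log2(RPM + 1) with 4 group means and a mean-variance trend. The 1 added to each RPM value understates changes of low genes. There were 4 residual and 14 prior degrees of freedom, with Benjamini-Hochberg adjustment over all tested genes at a threshold of 0.05. Errors are limma SE. edgeR 4.0.16 (quasi-likelihood, TMM) on recovered reads was an alternative, beside other scalings, filters, a pseudocount of 0.1, an acinar covariate and each library left out. Centring within deciles of intron content (GENCODE M21 lengths) was added after the data were seen. Ratios were compared by exact permutation tests. The fit was tested on simulated data. The labels do not say that libraries came from separate animals, so each p-value refers only to the spread between libraries, which may be technical. Replicates differed by far more than sampling noise (chi-square of 42.9 to 339 per degree of freedom). The members and gene lists were chosen with earlier results of these data known. Named genes are the 10 members, Tcf7, up to 3 called genes of a list (up to 2 with the smallest p where none was called) and the 2 nearest profiles. Slco1a5, Lrrc4 and Tnnc1 were chosen after their values were seen.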

Additional observations from a re-analysis of the deposited data

Results flagged for a closer look

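Pcsk1n, the gene of the PC1/3 inhibitor proSAAS, had opposite genotype differences at the 2 settings, with no overlap of groups at either. It was higher in knockout-labelled libraries at 8 weeks (37.9 and 46.5 against 35.6 and 31.9 RPM) and lower at 20 weeks (27.0 and 22.9 against 35.3 and 30.8 RPM). Of all tested genes, 13.1% did not overlap at 8 weeks and 33.5% at 20 weeks. The share without overlap at both, in opposite directions, was not counted. The difference between the 2 log2 fold changes was -0.70 (limma interaction, adjusted p = 1), so it did not pass over all tested genes.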

How the results depend on the processing

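No member was called in a genotype contrast or the interaction under any of the alternatives run, over 590 single values. The counts of members called between ages moved instead. In wild type (0 on the RPM scale) there was 1 with median-of-ratios scaling and with edgeR, 4 with either total of listed genes, and 3 after intron centring, where 17.2% and 18.1%, 30.5% and 39.2%, and 14.8% of all tested genes were called lower. In knockout-labelled libraries (1 on the RPM scale) there were 2 with median-of-ratios scaling and with edgeR, 3 with either listed total, 5 after intron centring (19.4% and 21.6%, 24.4% and 33.6%, and 15.6% of all genes), and 0 without the filter or with the compared libraries alone. The count also moved when 1 library was left out, in fits that kept a single library in a group. Averaged over genotypes (0 on the RPM scale) there were 3 with median-of-ratios scaling and with edgeR, 4 with either listed total, 1 without the trend or at a threshold of 0.10, and 6 after intron centring, and with the listed totals 38.9% and 46.7% of all genes were called lower. Here too the count moved when 1 library was left out. All genes called higher and lower between ages numbered 4164 and 807 on the RPM scale and 4095 and 3720 with median-of-ratios scaling. Intron centring reversed Pcsk2 (-0.68) and Cpe (-0.57) on average and Cpe (-0.69) and Pam (-0.74) in knockout-labelled libraries, by taking out the median rise of genes rich in introns. Ratios without overlap between ages numbered 3 in all libraries, 8 in wild type alone, 9 in knockout-labelled libraries alone, and 3 to 5 with 1 library left out (5 without knockout-labelled replicate 2 at 20 weeks), since fewer libraries overlap less often. Of 1180 single values under alternatives, 120 that were not called changed sign. For 113 of these the value in the main fit was smaller than its SE. No paired analysis was possible because the labels carry no replicate numbers.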

Other observations

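Lrrc4 and Tnnc1 lie inside Snd1 and Nisch on the opposite strand, and here the inner gene was low at 8 weeks and high at 20 weeks. Lrrc4 had a mean of 0.700 RPM at 8 weeks and 271 RPM at 20 weeks, and Tnnc1 0.724 and 190 RPM. Snd1 had means of 379 and 634 RPM, and Nisch 168 and 189 RPM. At 20 weeks Tnnc1 thus lay close to its outer gene, while Lrrc4 lay well below its own. The cause was not tested.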
